A study of Mus musculus with 6 samples.

Results

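Ubiquitin is joined to proteins by an E1 activating enzyme, an E2 conjugating enzyme and an E3 ligase, and is taken off again by deubiquitinases. Genes of 6 families of this machinery were examined in mouse retina, namely the E2 enzymes (Ube2), the ubiquitin-specific proteases (Usp), the cullins (Cul) and the F-box proteins of the Fbxo, Fbxl and Fbxw kind. They were chosen by symbol alone, as names that begin with Ube2 and a letter, with Usp or Cul and a number, or with Fbxo, Fbxl or Fbxw and a number. The deposited tables list 159 such names, of which 145 have at least 1 Ensembl transcript in all 6 libraries, and these 145 members stand among 25935 genes so measured. Of the 145 members, 32 are Ube2, 49 Usp, 8 Cul, 32 Fbxo, 16 Fbxl and 8 Fbxw genes.

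All 6 libraries came from wild-type C57BL/6 retinas of mice labelled as postnatal week 5, whose vitreous had received 2 µl of 100 mM N-methyl-D-aspartate (NMDA), an agonist of glutamate receptors that kills inner retinal neurons. At 2 days a second injection of 2 µl carried either phosphate-buffered saline (NMDA + PBS, the control, 3 libraries) or stem cell factor at 50 ng/µl (NMDA + SCF, 3 libraries), and retinas were taken 1 week later. Both groups therefore carry the NMDA injury, no uninjured library was analysed here, and the number of mice behind a library was not given in the sources used here. In what follows SCF always means stem cell factor, the ligand of the receptor c-Kit, and never the ligase built from Skp1, cullin and F-box proteins. The question put to these libraries was which transcripts differ after stem cell factor in the injured retina, and here it is asked of the ubiquitin genes.

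The unit is FPKM (fragments per kilobase of transcript, scaled to a fixed total of fragments), summed per gene over the transcripts that all 6 libraries list. Fragments recovered from the values numbered 3404335 to 4440579 per library. Libraries had been quantified on 2 transcript lists: NMDA + PBS replicate 1 and the 3 NMDA + SCF libraries share list A, and NMDA + PBS replicates 2 and 3 share list B. Over the 14013 genes with a mean of at least 1 FPKM, NMDA + PBS replicate 1 correlated with the NMDA + SCF libraries at 0.932 to 0.936. With its own group it correlated at 0.820 and 0.781 (log2 scale, across genes). A difference between NMDA + SCF and replicates 2 and 3 of the control is a difference of condition and of list at once, and the 2 cannot be told apart. Values of the control are given library by library below, replicate 1 first, so that they can be read against that replicate as well as against the group. The libraries held the retina's defining transcripts, with rod markers summing to 1250 to 1887 FPKM. Lens crystallins and other lens markers summed to 24.2 to 317 FPKM in NMDA + PBS and to 5401, 477 and 10311 FPKM in NMDA + SCF replicates 1 to 3, with 8 of 9 measured lens genes higher at an unadjusted limma p of 0.05. Pigment epithelium markers summed to 193 to 937 FPKM over the 6 libraries, nearly all of it from Ttr (176 to 919 FPKM). The other pigment epithelium markers stayed low, with Rpe65 at most at 1.26, Rgr at 3.19 and Lrat at 15.7 FPKM. Haemoglobin genes and Alas2 summed to 26.4 to 235 FPKM. Their part in the results was not tested, and in bulk RNA a change in cell numbers cannot be told from a change of RNA per cell.

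E2 enzymes receive ubiquitin, or a related modifier, from the E1 and hand it to a substrate through an E3 ligase, and the E2 in part decides which chain is built. Cullins are the scaffolds of the largest class of E3 ligases, and F-box proteins are the substrate receptors that dock on Cul1 through Skp1, with WD40 repeats in Fbxw, leucine-rich repeats in Fbxl and other domains in Fbxo proteins. Ubiquitin-specific proteases cleave the chains. In the retina the ubiquitin-proteasome system is best known for the turnover of photoreceptor proteins and for protein quality control in stressed neurons.

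Promoters of 4 members that the results turn on are given first. They are Ube2z and Ube2h, the highest E2 genes, and Usp2 and Usp19, the highest proteases, and all 4 had higher FPKM in the 3 NMDA + SCF libraries than in any control. Each is a RefSeq promoter of the GRCm38.p6 build, 300 bases around the transcript start, read 5′ to 3′ on the strand of the gene, and where a gene has several the first one listed is shown. Capitals mark the GC box (GGGCGG or its reverse complement CCGCCC) and the cAMP response element (TGACGTCA). The Ube2z promoter lies at chr11:96065315-96065614 (minus strand), that of Ube2h at chr6:30304490-30304789 (minus strand), that of Usp2 at chr9:44084670-44084969 (plus strand) and that of Usp19 at chr9:108490426-108490725 (plus strand).
Ube2z: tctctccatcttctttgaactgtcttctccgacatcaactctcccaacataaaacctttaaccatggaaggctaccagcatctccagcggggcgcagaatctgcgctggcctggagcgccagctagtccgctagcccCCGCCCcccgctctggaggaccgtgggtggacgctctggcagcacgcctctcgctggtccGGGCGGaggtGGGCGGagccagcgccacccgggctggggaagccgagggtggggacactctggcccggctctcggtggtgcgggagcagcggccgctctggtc
Ube2h: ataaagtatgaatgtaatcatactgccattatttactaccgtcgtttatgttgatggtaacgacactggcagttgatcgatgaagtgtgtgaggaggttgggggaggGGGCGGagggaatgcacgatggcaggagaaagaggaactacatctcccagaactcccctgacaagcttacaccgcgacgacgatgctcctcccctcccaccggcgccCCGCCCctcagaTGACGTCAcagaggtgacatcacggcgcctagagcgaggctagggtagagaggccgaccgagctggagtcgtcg
Usp2: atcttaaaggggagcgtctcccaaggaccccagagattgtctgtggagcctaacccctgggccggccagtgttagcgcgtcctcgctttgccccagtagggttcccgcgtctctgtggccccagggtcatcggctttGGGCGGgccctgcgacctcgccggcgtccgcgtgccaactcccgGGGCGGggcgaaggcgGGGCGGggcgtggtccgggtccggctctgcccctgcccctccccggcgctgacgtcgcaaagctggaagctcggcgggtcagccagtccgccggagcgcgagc
Usp19: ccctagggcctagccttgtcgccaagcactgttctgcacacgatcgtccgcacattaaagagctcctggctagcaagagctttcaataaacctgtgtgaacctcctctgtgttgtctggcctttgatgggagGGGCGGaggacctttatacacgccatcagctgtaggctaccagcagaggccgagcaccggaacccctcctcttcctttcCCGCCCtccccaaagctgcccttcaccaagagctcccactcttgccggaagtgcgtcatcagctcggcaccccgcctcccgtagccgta
The Ube2z and Usp2 windows hold 3 GC boxes each, the Ube2h and Usp19 windows 2 each, and the Ube2h window holds the only cAMP response element of the 4. RefSeq promoters were found for 110 of the 145 members, 140 promoters in all. On either strand, a GC box occurred in 98 of the 140 (70%) against 35.7% of all 32851 promoters, an E-box (CACGTG) in 14 (10%) against 7.15%, and a cAMP response element in 2 (1.43%) against 1.79%. These are matches of letters and not binding sites.

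By the mean over all 6 libraries the E2 genes formed the most abundant family, at 769 FPKM, though the ubiquitin-specific proteases summed higher in NMDA + PBS replicates 2 and 3. Summed over its 32 genes, the family total was 771, 680.0 and 591 FPKM in the 3 controls (replicates 1 to 3, in this order throughout) and 824, 868 and 878 FPKM after stem cell factor. All 3 NMDA + SCF libraries lay above all 3 controls, at 857 ± 29.2 against 681 ± 89.8 FPKM (SD, n = 3 each), a ratio of 1.26. Against NMDA + PBS replicate 1 alone the ratio was 1.11. When libraries were first scaled to their upper quartile the ratio was 1.15 and the groups overlapped, with replicate 1 of the control at 846 FPKM and the NMDA + SCF libraries at 778 to 846 FPKM. Median-of-ratios scaling also gave an overlap, at a ratio of 1.19, while scaling to the FPKM sum kept the groups apart at 1.20. A family sum rests on few genes, and 46.4% of this one came from Ube2z, Ube2h and Ube2g2. The sum also includes Ube2q1, whose values split by transcript list. Ube2q1 had 51.3, 3.92 and 1.14 FPKM in the controls and 57.6, 55.6 and 63.7 FPKM in NMDA + SCF.

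The ubiquitin-specific proteases gave 455, 705 and 696 FPKM in the 3 controls and 578, 550.2 and 562 FPKM in the NMDA + SCF libraries. Here the controls spread more widely (SD 142 FPKM) than the NMDA + SCF libraries (SD 14.0 FPKM), and the groups overlapped. NMDA + SCF stood at 0.910 of the control mean but at 1.24 times NMDA + PBS replicate 1, so the direction turned with the control library. The 8 cullins summed to 45.9, 61.2 and 61.4 FPKM in the controls and 54.1, 38.5 and 54.6 FPKM after stem cell factor, the lowest family total. Among the F-box families, Fbxo genes summed to 242, 281 and 265 FPKM in the controls and 290.0, 268 and 291 FPKM in NMDA + SCF. Fbxl genes summed to 108, 136 and 173 FPKM and 118, 111 and 104 FPKM in the same order. Fbxw genes summed to 68.1, 100.3 and 77.3 FPKM and 75.9, 66.999 and 89.3 FPKM. The groups overlapped in all 3 F-box families, and the ratio of means was 1.08 for Fbxo (0.989 with upper-quartile scaling), 0.798 for Fbxl (0.729 with upper-quartile scaling, where no NMDA + SCF library reached a control) and 0.945 for Fbxw, while against replicate 1 alone the ratios were 1.17, 1.03 and 1.14.

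**Figure D1:**
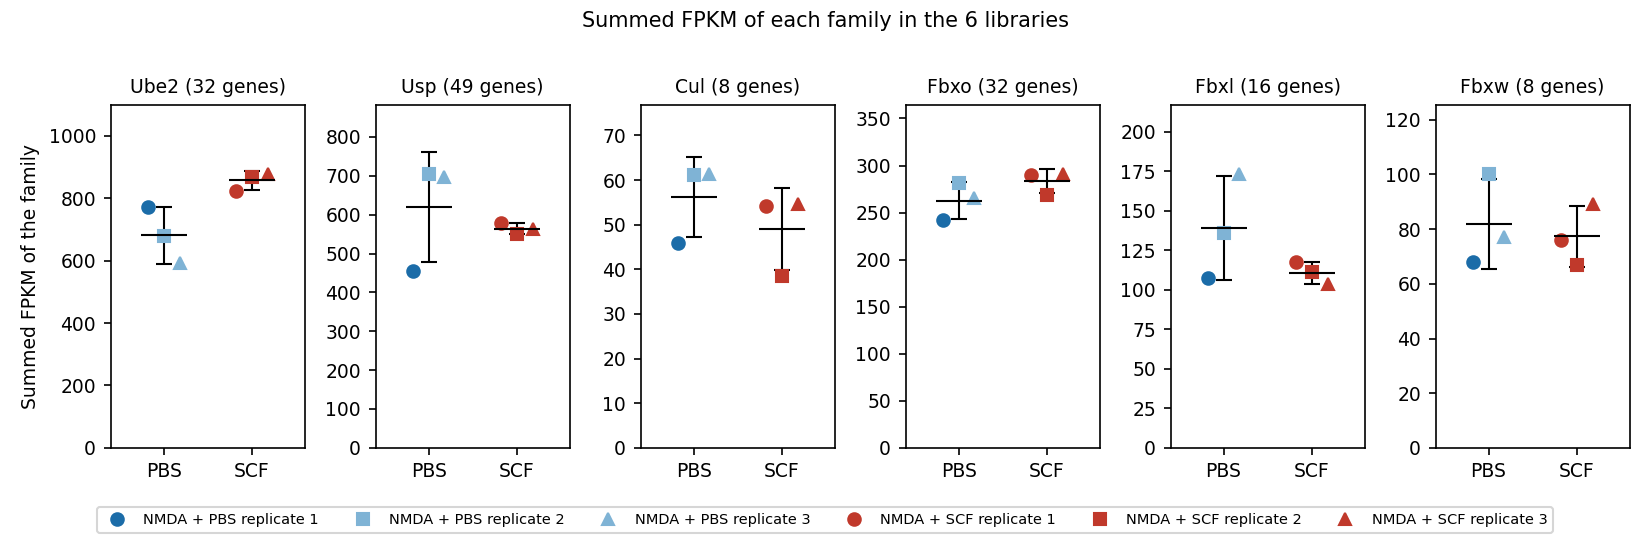
Summed FPKM of each family (y axis, from 0, own scale per panel) in the 3 NMDA + PBS (blue) and 3 NMDA + SCF (red) libraries, with the group mean (wide bar) and SD (whiskers). On these values, with no further scaling, Ube2 is the one family whose groups do not overlap, and dark blue marks NMDA + PBS replicate 1, the control quantified on list A.

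Levels within a family were uneven. Of 145 members, 49 had a mean of at least 10 FPKM over the 6 libraries, 39 had a mean below 1 FPKM, and 13 had at most 3 fragments in every library. The median member stood at 5.27 FPKM, and by family the median ran from 10.2 FPKM for Ube2 and 6.84 FPKM for Usp to 2.41 FPKM for Fbxo and 1.91 FPKM for Fbxl. Cul1, Cul4a and Cul9 made up 80.2% of the cullin sum.

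No member passed the test between groups. With limma on log2(FPKM + 1), fitted over 25202 genes above 0 and adjusted by Benjamini-Hochberg over all of them, 0 of the 144 members above 0 reached an adjusted p of 0.05, and the background over all genes was 0%. At the thresholds of the study (fold change 2 and adjusted p 0.001) the count was also 0, against 0% of all genes. The study itself reports genes past these thresholds, without naming the model behind its adjusted p. Its Gene Ontology analysis lists members as up, including Fbxl5, Fbxw7, Ube2d3, Usp7, Usp16, Usp19 and Usp33. In the fit used here only Ube2d3 and Usp19 of these genes were higher in NMDA + SCF. Fbxl5, Fbxw7, Usp7, Usp16 and Usp33 were lower, opposite to that listing, and none of these genes reached an adjusted p of 0.05. Against NMDA + PBS replicate 1 alone Usp7, Usp16 and Usp33 were higher, at log2 differences of 0.064, 0.48 and 0.042. The smallest adjusted p of a member was 0.536. At an unadjusted limma p of 0.05, 5 members were higher in NMDA + SCF, 3.47% of members against 4.33% of all genes, and 7 were lower, 4.86% against 4.90%. Both shares lay near the background. The 5 higher were Fbxl19, Usp19, Usp2, Ube2q1 and Ube2h, and the 7 lower were Usp22, Ube2e2, Usp32, Fbxl5, Usp6nl, Fbxo4 and Fbxw8. With voom on the recovered fragments, 7 members were higher (4.86%, against 5.37% of all genes) and 8 lower (5.56%, against 4.62%) at that unadjusted p. The median log2 fold change was -0.018 over members and -0.0058 over all genes tested. In a design of 3 against 3 a two-sided exact permutation test cannot give a p below 0.1.

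Counting separation instead, the 3 NMDA + SCF values of 16 members (11.1%) lay above all 3 controls, against 7.63% of all genes, and those of 13 members (9.03%) lay below, against 6.45%. With upper-quartile scaling the split was 7 above (4.86%, against 4.41% of all genes) and 23 below (16.0%, against 8.30%). Among the 49 members with a mean of at least 10 FPKM, 11 lay above (22.4%, against 20.7% of 4508 such genes) and 3 below (6.12%, against 4.19%). In this abundant range the median log2 fold change was 0.19 over members and 0.22 over all genes, and 31 members were positive against 69.1% of all genes that abundant. Members and other genes of this abundance thus leaned the same way.

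Among the E2 genes, Ube2z encodes an enzyme charged by the second ubiquitin E1, Uba6, and was the highest member. Ube2z stood at 149, 127 and 90.8 FPKM in the controls and at 160.1, 179.7 and 169.8 FPKM in NMDA + SCF. The groups did not overlap, though replicate 1 of the control was close to the NMDA + SCF range, and the log2 difference was 0.50 ± 0.22 (SE, limma adjusted p = 0.536). Its FPKM lay wholly in protein-coding transcripts. Ube2h, an E2 that works with the CTLH ligase, stood at 124, 105 and 107 FPKM in the controls and at 138, 157 and 148 FPKM in NMDA + SCF. Again all NMDA + SCF values were above all controls, with a log2 difference of 0.39 ± 0.16 (limma adjusted p = 0.536), and 99.3% of its FPKM was in coding transcripts. Ube2g2, the E2 of degradation from the endoplasmic reticulum, had 101, 63.1 and 39.9 FPKM in the controls and 92.5, 90.7 and 96.9 FPKM in NMDA + SCF. Replicate 1 of the control was its highest library, so the groups overlapped.

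The E2 enzymes with the broadest use were nearly level. Ube2d3, a promiscuous partner of many RING ligases, had 58.3, 59.1 and 59.9 FPKM in the controls and 57.2, 67.02 and 68.4 FPKM in NMDA + SCF. Ube2n, which builds Lys63-linked chains, spanned only 46.3 to 50.9 FPKM over the 6 libraries. Its processed pseudogene Ube2n-ps1 was listed at 21.8, 13.7 and 24.04 FPKM and 12.7, 56.3 and 12.6 FPKM, and because both share sequence the split of reads between them is uncertain. Of the E2 genes for related modifiers, Ube2m, which carries NEDD8 to cullins, had 8.13, 11.4 and 5.28 FPKM in the controls and 16.4, 4.73 and 18.2 FPKM in NMDA + SCF. Its 2 high libraries, NMDA + SCF replicates 1 and 3, were also the 2 with the most lens transcripts, and the part of those transcripts was not tested. The Ube2m transcripts in both lists hold no coding transcript, so these values are of non-coding transcripts of the gene.

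Ube2w, which modifies protein N-termini, had 9.82, 10.01 and 19.9 FPKM in the controls and 10.7, 9.59 and 13.2 FPKM in NMDA + SCF over shared transcripts, with overlapping groups. With all listed transcripts NMDA + PBS replicates 2 and 3 stood at 94.1 and 116 FPKM, because list B holds 2 transcripts of the gene that list A lacks. The family mean over 6 libraries was 769 FPKM over shared transcripts and 858 FPKM over all listed ones.

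Ube2e2 had the smallest unadjusted p of the E2 genes. It had 3.55, 6.21 and 6.77 FPKM in the controls and 2.10, 2.46 and 2.21 FPKM in NMDA + SCF, a log2 difference of -0.96 ± 0.30 (limma adjusted p = 0.536). The groups did not overlap, but its fragments numbered at most 20 per library and 1.86% of its FPKM was in coding transcripts. Its relatives went both ways, with Ube2e1 also below all controls and Ube2e3 above them, at 26.3, 29.4 and 30.8 FPKM against 37.2, 34.6 and 36.9 FPKM.

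Usp2, a protease whose transcript cycles with the circadian clock in many tissues, was the highest deubiquitinase. It stood at 79.5, 77.6 and 50.2 FPKM in the controls and 99.4, 104 and 123 FPKM in NMDA + SCF. No library of 1 group reached the other, the log2 difference was 0.67 ± 0.22 (limma adjusted p = 0.536), and all its FPKM was in coding transcripts. Usp19, a protease that includes a form anchored in the endoplasmic reticulum, stood at 40.4, 58.5 and 37.96 FPKM in the controls and 79.1, 66.8 and 73.1 FPKM in NMDA + SCF. These groups did not overlap either, with a log2 difference of 0.69 ± 0.21 (limma adjusted p = 0.536), and it was 0.83 against replicate 1 alone. The Usp19 transcripts in both lists hold no coding transcript, so this value is of non-coding transcripts of the gene. Usp10, the third by level, was listed at 26.4, 44.7 and 38.1 FPKM and 42.9, 33.8 and 46.4 FPKM, with overlapping groups and 0.457% in coding transcripts.

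Usp38, which acts in innate immune signalling, had 28.2, 29.7 and 28.9 FPKM in the controls and 30.5, 37.5 and 31.5 FPKM in NMDA + SCF, above all controls by a small margin. Usp7, the protease of Mdm2 and p53, had 29.03, 41.98 and 51.05 FPKM and 40.3, 25.6 and 27.1 FPKM, with overlapping groups. Usp14, which sits on the proteasome, had 8.15, 13.2 and 16.2 FPKM and 10.7, 14.1 and 10.8 FPKM. Usp16, a histone H2A deubiquitinase, had 9.55, 18.9 and 30.1 FPKM and 12.1, 13.8 and 15.4 FPKM, and its control replicates alone spanned more than the difference between groups. Usp33, which acts on centrosome and receptor proteins, had 5.17, 9.72 and 12.4 FPKM and 4.76, 5.42 and 5.94 FPKM. The Usp33 transcripts in both lists hold no coding transcript. Usp18, which removes ISG15 and is induced by interferon, stayed within 5.19 to 9.30 FPKM, and Usp9x, which stabilises many signalling proteins, within 0.602 to 1.65 FPKM. The groups overlapped for each of these last 5 genes.

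Usp22, the deubiquitinase of the SAGA coactivator (chr11:61151785-61175055, minus strand, GRCm38), had the largest fitted log2 difference of any member, and its controls did not form a group. Its values were 5.44, 72.2 and 76.5 FPKM in the controls and 3.01, 4.50 and 2.17 FPKM in NMDA + SCF. Replicate 1 of the control lay just above the NMDA + SCF libraries, and replicates 2 and 3 stood far above them. The coding transcript of Usp22 was at 0 FPKM in replicate 1 and at 70.1 and 75.1 FPKM in replicates 2 and 3, while NMDA + SCF had at most 0.0648 FPKM of it. The fitted log2 difference was -3.01 ± 0.91 (limma adjusted p = 0.536).

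The same split by transcript list was seen in other members. Ube2q1, an E2 of an extended class (chr3:89773616-89784000, plus strand), ran the other way, at 51.3, 3.92 and 1.14 FPKM in the controls and 57.6, 55.6 and 63.7 FPKM in NMDA + SCF. Fbxw8, a receptor that works with Cul7 (chr5:118064965-118155464, minus strand), had 0.421, 19.2 and 22.5 FPKM and 0.452, 0.148 and 0.299 FPKM. Usp42 had 0, 10.995 and 9.27 FPKM and 0.822, 0.112 and 0.281 FPKM, from 0 fragments in replicate 1 and 219 and 212 in replicates 2 and 3. Usp32, a protease of endosomes, had 5.79, 30.7 and 39.5 FPKM and 5.92, 2.77 and 3.996 FPKM, and Usp6nl, a Rab GTPase-activating protein that is in the set by name only, had 5.94, 23.5 and 26.7 FPKM and 4.63, 5.47 and 5.59 FPKM. In each of these genes NMDA + PBS replicate 1 lay at the level of the NMDA + SCF libraries and away from both other controls. Ube2q1, Fbxw8, Usp32 and Usp6nl have the same Ensembl transcripts in both lists, so the difference was not one of which named transcripts were summed. Each list also holds merged transcripts without an Ensembl name (8.85% to 11.4% of all FPKM), and whether those took fragments of these genes was not tested.

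**Figure D2:**
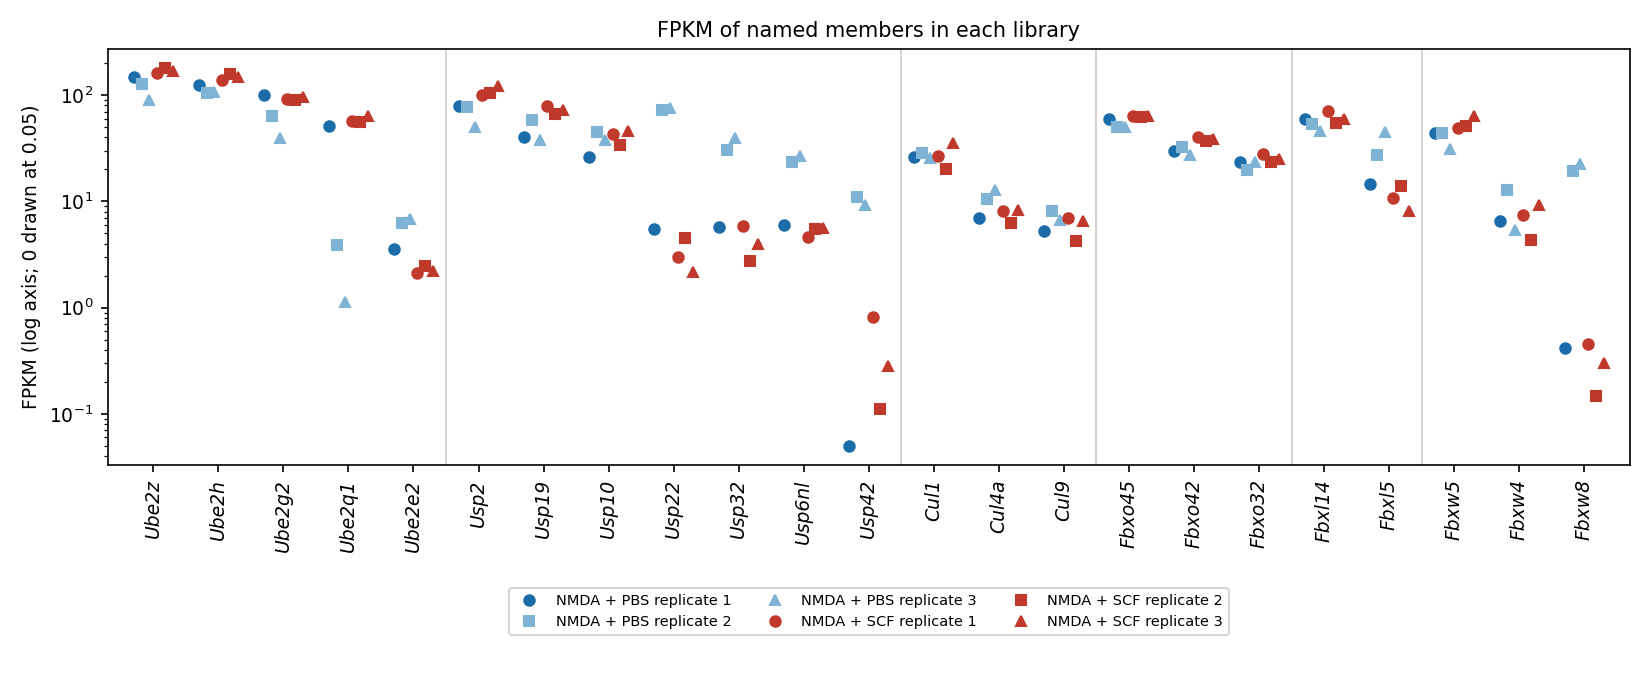
FPKM (log axis, 0 drawn at 0.05) of 23 named members in each of the 6 libraries, ordered by family and level. NMDA + PBS replicate 1 (dark blue) lies near NMDA + SCF (red) and apart from replicates 2 and 3 (light blue) for Ube2q1, Usp22, Usp32, Usp6nl, Usp42 and Fbxw8, while Usp2 and Usp19 lie above all controls in NMDA + SCF.

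Over all members, 15 (10.4%) differed by at least 2-fold between replicate 1 and the mean of replicates 2 and 3 of the control, against 13.0% of all genes. Of these 15, 9 have the same Ensembl transcripts in both lists and 6 do not. Leaving out NMDA + PBS replicate 1, so that all remaining controls have list B and all NMDA + SCF libraries list A, 9 members (6.25%) reached an adjusted limma p of 0.05, against 3.64% of all genes. Ube2q1 was then higher in NMDA + SCF, and Fbxl5, Fbxo4, Fbxw8, Usp22, Usp32, Usp42, Usp49 and Usp6nl were lower. In that comparison condition and list cannot be told apart. With replicate 1 as the lone control, 45 of 144 members had the sign opposite to the fit on all 6 libraries. No share over all genes stands beside this count, so it is not read as a trait of the members. Set against replicate 1 alone at a fold of at least 1.5, on the log2(FPKM + 1) scale, 13 members were higher (9.03%, against 10.5% of all genes) and 4 were lower (2.78%, against 7.80%). These 4 were Cul5, Fbxl8, Usp22 and Usp50, and among the 13 were Usp19, Usp10, Usp28, Ube2a, Ube2d1, Fbxo7, Fbxo9 and Fbxo25. This comparison has 1 control library and was not tested.

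**Figure D3:**
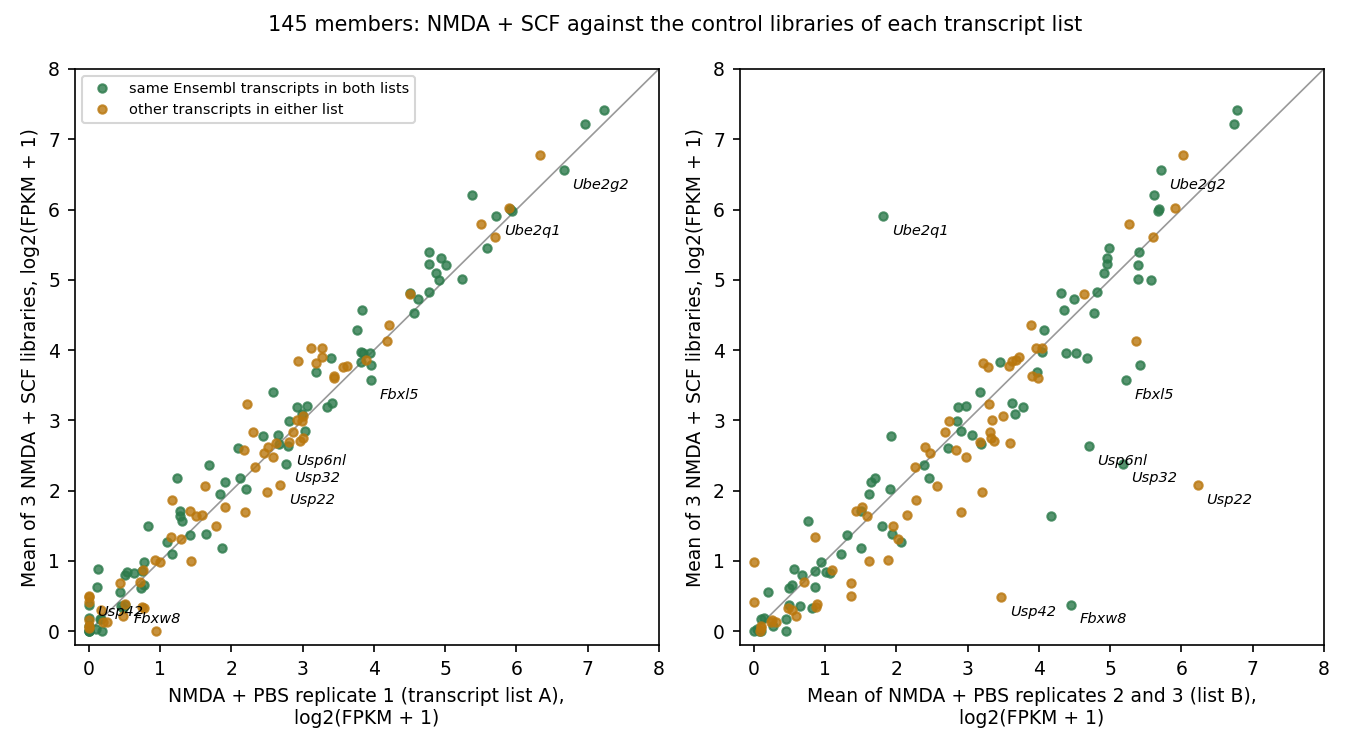
Mean log2(FPKM + 1) of the 3 NMDA + SCF libraries (y axis) against NMDA + PBS replicate 1 (left x axis) and against the mean of replicates 2 and 3 (right x axis) for 145 members, coloured by whether both transcript lists hold the same Ensembl transcripts; the line is equality. Ube2q1, Usp22, Usp32, Usp42 and Fbxw8 lie nearer the line on the left than on the right, and Usp22 is below it on both sides.

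Over the shared transcripts cullins were low and mostly not in coding transcripts. Cul1, the scaffold of the ligase that F-box proteins serve, was the highest at 26.4, 28.8 and 25.6 FPKM in the controls and 26.7, 20.02 and 35.1 FPKM in NMDA + SCF. Its lowest and highest libraries were both NMDA + SCF, so the groups overlapped. Cul4a, which pairs with Ddb1, had 6.98, 10.6 and 12.8 FPKM and 8.08, 6.24 and 8.28 FPKM, and Cul9, a large cullin that binds p53, had 5.28, 8.13 and 6.61 FPKM and 7.05, 4.22 and 6.54 FPKM. Both overlapped between groups. Cul5, which serves SOCS-box receptors, had 4.63, 5.29 and 11.1 FPKM in the controls and 4.47, 3.24 and 1.14 FPKM in NMDA + SCF and was the one cullin without overlap. Its log2 difference was -1.04 ± 0.45 (limma adjusted p = 0.536), but its lowest control, replicate 1, and NMDA + SCF replicate 1 differed by only a small margin, and with all listed transcripts the groups overlapped. Cul2, the scaffold for the von Hippel-Lindau receptor, ranged from 2.22 to 6.62 FPKM, and Cul7 from 0.451 to 1.54 FPKM. Over shared transcripts Cul3, which serves BTB-domain receptors, was at 0 in 3 libraries and at most at 1.85 FPKM, and Cul4b at 0 in 4 libraries. A coding transcript of Cul3 that only list B holds had 8.65 FPKM in NMDA + PBS replicate 2 and 0 in replicate 3. For Cul3 and Cul4b, and also for Cul2 and Cul9, the shared transcripts hold none annotated as coding. The values of these cullins are therefore of non-coding transcripts alone.

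Fbxl14, a receptor for Snail-family factors, led the Fbxl genes at 60.1, 53.9 and 46.2 FPKM in the controls and 70.8, 54.9 and 59.9 FPKM in NMDA + SCF, with overlapping groups. Fbxl5, the iron-sensing receptor of Irp2, had 14.5, 27.4 and 45.4 FPKM and 10.7, 13.8 and 8.04 FPKM. No NMDA + SCF library reached a control, the log2 difference was -1.23 ± 0.41 (limma adjusted p = 0.536), and 9.67% of its FPKM was in coding transcripts.

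Fbxl19 had the smallest unadjusted p of the members but few fragments. Its shared transcript was listed at 0 FPKM in all 3 controls and at 0.449, 0.331 and 0.222 FPKM in NMDA + SCF, from 4, 3 and 2 fragments, so no fold is given. List B holds 3 further transcripts of Fbxl19, which summed to 7.36 and 9.18 FPKM in the controls of that list, and with them the sign was reversed.

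Fbxo45, a receptor known for its role at synapses, was the highest Fbxo gene. It stood at 59.04, 50.5 and 50.3 FPKM in the controls and 63.2, 62.7 and 64.3 FPKM in NMDA + SCF, with no overlap and a log2 difference of 0.25 ± 0.15 (limma adjusted p = 0.613). Fbxo42, a receptor for p53, had 29.6, 32.8 and 27.1 FPKM and 40.6, 37.4 and 38.4 FPKM, again with no overlap and at 0.37 ± 0.16 on the log2 scale (limma adjusted p = 0.536). Both genes had all their FPKM in coding transcripts and the same transcripts in both lists. Fbxo32, or atrogin-1, the muscle atrophy ligase, had 23.5, 19.6 and 23.4 FPKM and 27.7, 23.5 and 25.03 FPKM, and its groups overlapped. Fbxo7, a receptor linked to mitochondrial clearance and parkinsonism, had 5.02, 7.996 and 8.03 FPKM and 8.59, 8.84 and 11.4 FPKM. Its NMDA + SCF values were above all controls, with 0.527% of FPKM in coding transcripts. Fbxo34 was listed at 0 in 4 libraries and at 0.989 and 2.92 FPKM in 1 library of each group.

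Fbxw5, a receptor that acts in centrosome duplication, led the Fbxw genes. It had 44.2, 43.98 and 30.9 FPKM in the controls and 49.3, 50.8 and 63.4 FPKM in NMDA + SCF, with no overlap and a log2 difference of 0.46 ± 0.21 (limma adjusted p = 0.54). Fbxw4 had 6.57, 12.9 and 5.39 FPKM and 7.51, 4.34 and 9.34 FPKM. Fbxw7, the tumour-suppressor receptor for Notch, Myc and cyclin E, had 4.98, 7.53 and 6.29 FPKM and 4.36, 2.79 and 6.55 FPKM. The groups overlapped for both.

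The remaining members that lay above all controls were Fbxo10, Fbxo31, Ube2o and Usp21, and those below all controls were Fbxo24, Fbxw2, Usp1, Usp11, Usp24, Usp46 and Usp51, with means from 0.145 FPKM (Fbxo24) to 10.99 FPKM (Usp21). With all listed transcripts the groups of Usp11 and Usp46 overlapped. Of the genes with the same transcripts in both lists, 12 of 80 members (15.0%) lay above all controls, against 7.76% of all such genes, and 5 of 80 (6.25%) lay below, against 6.23%.

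A gene's FPKM was often not that of its coding transcripts. Over the 144 members above 0 the median share in protein-coding transcripts was 57.5%, 67 members had under 50%, and 33 coding members had no coding transcript in both lists. By family the share of the sum in coding transcripts ran from 80.3% for Ube2 and 79.8% for Fbxo through 68.1% for Fbxl, 58.3% for Fbxw and 56.4% for Usp to 28.2% for Cul. The members led by coding transcripts (Ube2z, Ube2h, Usp2, Fbxo45, Fbxo42, Fbxl14) are among those whose values can be read as messenger RNA of the gene. Of the 145 members 5 are not coding genes: the antisense transcripts Fbxl12os and Usp46os1, the related Usp46os2, and the pseudogenes Ube2d-ps and Ube2n-ps1. Usp46os1 was listed at 0 in all 6 libraries.

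**Figure D4:**
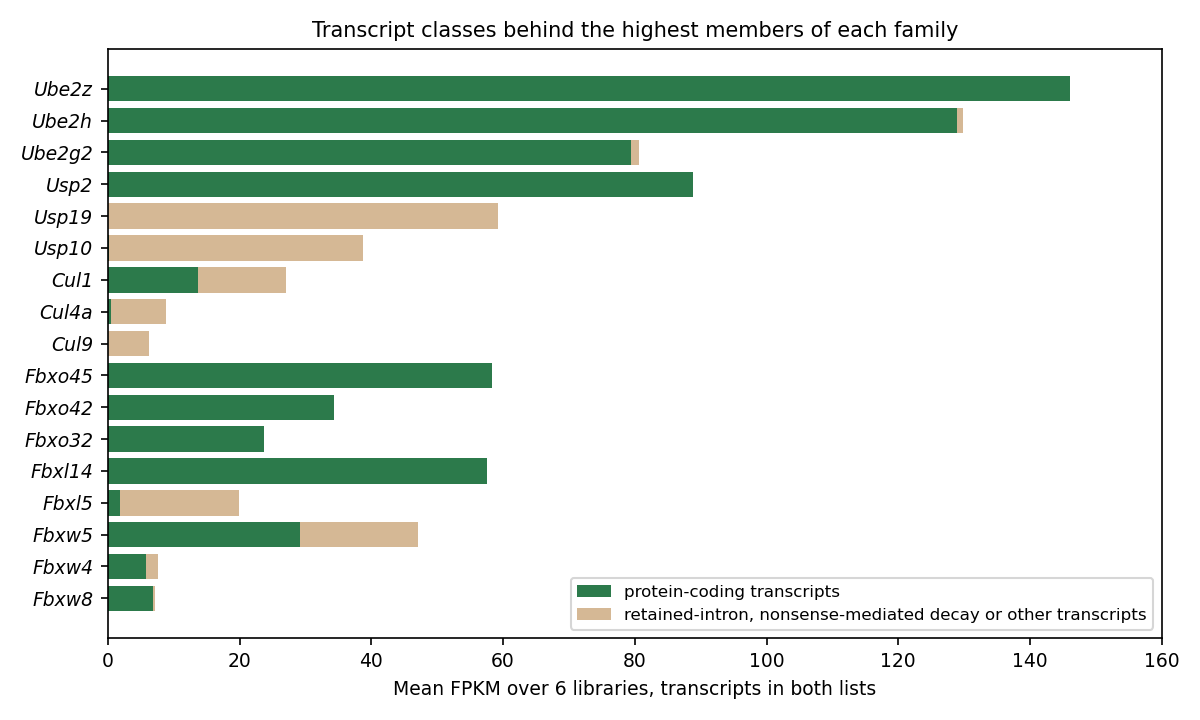
Mean FPKM over the 6 libraries (x axis) of 17 of the highest members, by family, split into protein-coding transcripts (green) and retained-intron, nonsense-mediated decay or other transcripts (tan). Ube2z, Usp2, Fbxo45 and Fbxl14 are wholly green, while Usp19 and Cul9 are wholly tan and Usp10 is almost wholly tan.

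A further 14 names had no transcript in both lists and entered no comparison: Fbxo15, Fbxo27, Fbxo39, Fbxw9, Fbxw10, Fbxw15, Fbxw18, Fbxw23, Fbxw27, Ube2d2a, Ube2uos, Usp9y, Usp17la and Usp17le. List A alone held 6 of them and list B alone 7. Fbxw9 had other transcripts in each list and was listed at 0 FPKM in the 4 libraries of list A and at 16.7 and 7.81 FPKM in those of list B. The other 13 were below 1 FPKM in every library that listed them.

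The partners of these families were read from 9 lists of the pathway, with 138 genes listed and 126 above 0. Of these 126 genes, 0 reached an adjusted limma p of 0.05, and at an unadjusted p of 0.05 there were 4 higher (3.17%, against 4.33% of all genes) and 6 lower (4.76%, against 4.90%), shares near the background. Among the 4 higher were Sae1, a subunit of the SUMO E1, Cand2, an exchange factor of cullins, and Hectd3, a HECT ligase. Sae1 stood at 83.2, 62.2 and 35.1 FPKM in the controls and 83.5, 102 and 98.9 FPKM in NMDA + SCF. Lower were Rbx1, the RING subunit of cullin ligases, Cops5, the catalytic subunit of the COP9 signalosome that takes NEDD8 off cullins, the deubiquitinases Otud6b and Otud7b, and the HECT ligases Nedd4l and Hecw1. Rbx1 stood at 3.76, 10.9 and 14.6 FPKM in the controls and 1.43, 3.13 and 3.07 FPKM in NMDA + SCF, and Cops5 at 12.1, 19.9 and 18.5 FPKM and 10.7, 9.93 and 11.6 FPKM. In both, the 2 highest libraries were NMDA + PBS replicates 2 and 3. Otud6b was listed at 0 in replicate 1 and in all NMDA + SCF libraries and at 3.77 and 5.38 FPKM in replicates 2 and 3, much as Usp42 was. Over the lists 11 genes (8.73%, against 7.63% of all genes) lay above all controls and 8 (6.35%, against 6.45%) below.

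By list, against the same 4.33% and 4.90% of all genes, the higher and lower genes at an unadjusted p of 0.05 numbered 1 and 0 of 4 ubiquitin precursors, 1 and 0 of 9 E1 enzymes, 0 and 1 of 8 cullin-ligase core and adaptor genes, 1 and 1 of 18 genes of neddylation and the COP9 signalosome, 0 and 2 of 20 other deubiquitinases, 1 and 2 of 23 HECT ligases and 0 and 0 of 16 genes of the anaphase-promoting complex. HECT ligases, which form a bond with ubiquitin themselves, had the lowest median log2 difference at -0.32, with 3 of 23 positive. Against NMDA + PBS replicate 1 alone that median was -0.0050. The subunits of the 20S proteasome, the core that degrades ubiquitinated proteins, summed to 1179, 789 and 770.4 FPKM in the controls and 957, 957 and 1151 FPKM in NMDA + SCF, with replicate 1 of the control the highest library, and 0 of 13 reached an unadjusted p of 0.05. For the 19S cap it was 0 of 15.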

How the data were processed

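RNA of retina had been sequenced by the authors in 3 libraries per group, and they deposited FPKM per transcript for each library and a table of read totals and percent quality values (44925938 to 48783182 clean reads, of which 92.9 to 94.3 percent of bases reached Q30). The submitters' processing notes name the mm9 build, but 98.2% of 63313 transcript positions equal those of GENCODE M21 on GRCm38, so GRCm38 coordinates were used. The aligner and counter are not given in the sources used here. The FPKM of a gene is here the sum of those of its Ensembl transcripts among the 46933 that every file lists, leaving out 7529 of list A only, 8966 of list B only and the merged transcripts without Ensembl names.

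Whole fragments were recovered from FPKM times transcript length for 98.4% to 98.5% of values (within 0.05 of a whole number), which is 14.1% to 18.2% of clean read pairs, and limit the precision of genes with few fragments. The groups were compared with limma 3.58.1 (R 4.3.3) on log2(FPKM + 1) with a variance trend, condition as the only term, Benjamini-Hochberg adjustment over 25202 genes above 0, and fold change 2 with adjusted p 0.001 as in the study. A fold on this scale understates the change of low genes. The fit was run on simulated data with the spread within NMDA + SCF and no difference of list. That run cannot speak to the wider spread of the controls or to their split by list. Libraries are replicates by label only, so p-values measure the spread between these samples, which may be technical. Same-numbered libraries of the groups did not deviate together (correlations -0.050, -0.046 and -0.077).

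Named members were the 3 highest of each family, the 5 with the smallest p each way, all cullins, the 3 members with the largest gap each way between the control libraries of the 2 lists, 15 genes fixed by function, and at most 2 genes per pathway list. Others were named after their values were seen, and some items are not reported here. The members and lists were chosen with earlier results of these data known. Alternatives were other scalings (upper quartile, median of ratios, FPKM sum), a mean FPKM of at least 1, pseudocount 0.1, all listed transcripts, genes with the same transcripts, protein-coding transcripts only, each library left out, a replicate block, transcript list as a term, and voom on recovered fragments.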

Additional observations from a re-analysis of the deposited data

Results flagged for a closer look

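Transcripts that only list A holds entered no comparison, and they can be set against NMDA + PBS replicate 1 alone. In 3 of the 35 members with such transcripts (8.57%, against 5.88% of 3505 genes), all 3 NMDA + SCF libraries were above that control and held more than 3 fragments each. For Cul5 the mean of NMDA + SCF was 0.959 FPKM (1.19, 0.839 and 0.844 FPKM) against 0.172 FPKM in the control, from 7, 5 and 5 fragments against 1. For Fbxo28, an F-box protein of the nucleus, the mean was 1.94 FPKM (1.75, 2.68 and 1.40 FPKM) against 1.10 FPKM. These transcripts of Cul5 and Fbxo28 are annotated as retained introns. Over its shared transcripts Cul5 went the other way, with all NMDA + SCF libraries below all controls. For Usp34, a protease of Wnt signalling, the mean was 10.6 FPKM (9.86, 10.9 and 11.1 FPKM) against 9.86 FPKM, a difference within the spread of the NMDA + SCF libraries. No test was run with 1 control library.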

How the results depend on the processing

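Under upper-quartile scaling 11 members were lower at an unadjusted p of 0.05 (7.64%, against 6.17% of all genes), 7 lay above all controls and 23 below (4.86% and 16.0%, against 4.41% and 8.30%). Median-of-ratios scaling gave 11 lower at that p (against 5.78% of all genes), and scaling to the FPKM sum, chosen after seeing the data, left 4 below all controls (2.78%, against 5.51%). Genes with the same transcripts in all files gave 3 members higher at that p (3.75%, against 4.27%) and 5 below all controls (6.25%, against 6.23%), a subset by construction. The replicate block gave 3 higher at that p (2.08%, against 2.85%), and since the numbers are not stated to pair the libraries this was not read further. The median log2 fold change was -0.088 with voom. The Ube2 level was 857.8 FPKM with all listed transcripts. In these settings 0 members reached an adjusted p of 0.05. The cause of these shifts was not tested.

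Leaving out 1 library at a time, members at fold change 2 and adjusted p 0.001 numbered 0 to 2, and at adjusted p 0.05 0 to 9. No share over all genes stands beside the count of 2, so it is not read as a trait of the members. Members higher at unadjusted p 0.05 numbered 2 to 11 and lower 2 to 17. Below all controls lay 16 to 41, and the median log2 fold change ran from -0.086 to 0.013. The highest counts came without NMDA + PBS replicate 1. There 7.64% and 11.8% of members were higher and lower at that unadjusted p, against 7.83% and 9.53% of all genes. Below all controls lay 28.5% of members, against 17.3%, and 6.25% reached an adjusted p of 0.05, against 3.64%. Every other omission left 0 members at adjusted p 0.05. Without NMDA + SCF replicate 1 or 3, 3 and 2 were higher at that unadjusted p (2.08% and 1.39%, against 2.78% and 1.96% of all genes). Without NMDA + PBS replicate 2 or 3, 3 and 2 were lower at it (2.08% and 1.41%, against 3.69% and 2.94%). Without NMDA + SCF replicate 2 or 3, 3 and 3 were lower (2.08% each, against 2.47% and 2.64%). Below all controls lay 23 and 22 without NMDA + SCF replicate 1 or 2 (16.0% and 15.3%, against 10.3% and 9.98% of all genes). A mean FPKM of at least 1 and pseudocount 0.1 kept each count within 1.5 times.

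Among named members the log2 difference of Cul7 was -0.038, -0.017 and -0.033 with upper-quartile, median-of-ratios and FPKM-sum scaling, that of Ube2d3 -0.011 with upper-quartile scaling and -0.079 with voom, and with all listed transcripts Fbxl19 gave -1.72. On leaving out single libraries the sign turned within these ranges: Cul1 -0.21 to 0.18, Cul2 -0.18 to 0.37, Cul4b -0.065 to 0.043, Cul7 -0.16 to 0.27, Cul9 -0.29 to 0.039, Fbxo34 -0.33 to 0.66, Fbxw4 -0.40 to 0.16, Ube2d2b -0.17 to 0.077, Ube2n -0.060 to 0.0073, Usp10 -0.021 to 0.35, Usp14 -0.29 to 0.17, Usp16 -0.76 to 0.019 and Usp9x -0.22 to 0.14. With protein-coding transcripts only, 7 of 38 named members moved by more than the spread between replicates, among them Ube2e2 (0.17) and Fbxl5 (-0.24). The Ube2e2 value rests on 1 fragment, in NMDA + SCF replicate 3. With transcript list as a term 21 of 45 moved by more than that spread. Against NMDA + PBS replicate 1 alone, 15 of 45 named members had the sign opposite to the fit on all 6 libraries. Some members were named for their gap between the control libraries, and no share over all genes stands beside these counts. The counts are therefore not read as a trait of the members. Values from few fragments limit 13 members with at most 3 in every library.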

Other observations

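Several members had most of their FPKM in transcripts that only list B holds, which NMDA + PBS replicates 2 and 3 alone can show. The mean of these 2 libraries in such transcripts was 89.96 FPKM for Ube2w and 30.04 FPKM for Ube2d1, a close relative of Ube2d3. It was 20.2 FPKM for Usp48, 13.7 FPKM for Fbxw4, 13.2 FPKM for Usp37, which acts on cyclin A, and 8.27 FPKM for Fbxl19. No NMDA + SCF library lists these transcripts, so they could not be compared between groups.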
